A study of Mus musculus with 24 samples.

Results

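Splicing in the developing visual cortex is described here through the 52 genes of the mRNA table whose symbol starts with Srsf and a digit, or with Hnrnp, Sf3a, Sf3b or Snrp, out of 23881 genes listed. They were 11 Srsf, 20 Hnrnp, 3 Sf3a, 6 Sf3b and 12 Snrp genes. The choice rested on gene names and used no expression value, but it was made with earlier results of these data known. RNA sequencing had been done on visual cortex from 3 groups of mice with 4 libraries each: P28-KO, 28 days old and null for the locus of miR-132 and miR-212; P28-wt, 28 days old and wild type; and P10-wt, 10 days old and wild type. All mice were on a C57BL6J background, of both sexes and normally reared, and the deletion was germ-line, so that it was present in every cell of the P28-KO cortex and throughout its development. No P10-KO mRNA libraries were analysed here, and age was therefore compared in wild-type mice only.

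Splicing removes introns from pre-mRNA in the spliceosome. Its U1 particle recognises the 5′ splice site and its U2 particle the branch point; each carries a ring of Sm proteins, which the Snrpb, Snrpn, Snrpd, Snrpe, Snrpf and Snrpg genes encode, and proteins of its own. The SF3a and SF3b complexes belong to U2 and hold it on the branch point. SR proteins (Srsf genes) bind exons and mostly favour their inclusion, whereas hnRNP proteins (Hnrnp genes) coat nascent transcripts and often oppose it, and in developing neurons the balance between such factors is known to shape many isoforms.

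The deletion was visible in the mRNA table itself. Mir132, on mm10 chromosome 11 from 75173682 to 75173747, was at 0 RPKM in all 4 P28-KO libraries, against 14.4, 9.74, 13.1 and 11.2 RPKM in P28-wt, and averaged 0.61 ± 0.553 RPKM in P10-wt (SD, n = 4). RPKM, the unit throughout, counts reads per kilobase of exon and corrects for library size. Mir212, from 75173388 to 75173478 on the same chromosome, was likewise at 0 in all P28-KO libraries, against 14.0 to 24.7 RPKM in P28-wt. Both values fit the labels of the mutant libraries.

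These 2 loci give 4 mature miRNAs, printed here because their seeds define the sites looked for in the splicing genes. The sequences are those of RefSeq on GRCm38.p6, 5′ to 3′, with the seed (bases 2 to 8) in capitals. The -3p arms share 1 seed and the -5p arms have a seed each.
mmu-miR-132-3p: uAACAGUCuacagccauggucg
mmu-miR-212-3p: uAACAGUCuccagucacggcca
mmu-miR-132-5p: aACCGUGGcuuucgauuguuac
mmu-miR-212-5p: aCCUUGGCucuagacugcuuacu

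The letters complementary to the -3p seed, GACTGTT, occurred in the RefSeq 3′ UTR of 6 of the 52 genes (11.5%), which compares with 1610 of the 13123 expressed genes that had a 3′ UTR in RefSeq (12.3%). The search covered the sense strand of the 3′ UTR of 1 transcript per gene. The median 3′ UTR was 748.5 bases long for the splicing genes and 1104 bases for all genes. The 6 windows are printed on the strand of the gene with the complement of the seed in capitals.
Hnrnpc, chr14:52074628-52074655, minus strand: ccctcacgtgagtggGACTGTTacaaca
Hnrnpd, chr5:99956084-99956111, minus strand: aggcaaattccactgGACTGTTtccatt
Hnrnpm, chr17:33646324-33646351, minus strand: attggggttccatttGACTGTTtgcatt
Hnrnpu, chr1:178329287-178329314, minus strand: ccttcacaagaagtcGACTGTTttcttt
Sf3b1, chr1:54986024-54986051, minus strand: gcagcttgtgcttctGACTGTTaacaag
Snrpb, chr2:130171643-130171670, minus strand: tataataaactaagaGACTGTTatacat

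In Hnrnpc, Sf3b1 and Snrpb the site was followed by an A, a base that is known to strengthen a miRNA site. GCCAAGG, the complement of the miR-212-5p seed, was found in Hnrnph1 and Hnrnpul2 (3.85% of the splicing genes and 12.2% of all genes), and CCACGGT, that of miR-132-5p, in Hnrnpdl (1.92% and 3.21%). Such a match describes the sequence and does not show that a site is used.

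All 52 genes passed the filter for expression, a mean of at least 0.5 RPKM over the 12 libraries, which 13927 genes passed. Their mean RPKM ran from 0.577 for Hnrnpa3 to 113 for Hnrnpa2b1 with a median of 27.1. Some rows cover little of their gene, and their values bear on that stretch only. The row of Hnrnpa3 spans 31 bases, holds none of the coding sequence, was at 0 in 2 P28-KO libraries and 1 P28-wt library, and rested on at most about 1.24 reads in any library. The row of Snrpn lies upstream of the SmN coding exons, that of Snrpf spans 126 bases, and those of Hnrnph3 and Srsf4 hold 24.11% and 44.67% of the coding bases. Reads that matched several places had been left out, and many genes of the hnRNP and Sm families have processed pseudogenes, so the level of one gene relative to another is uncertain.

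Estimated from the steps in the values of low genes, sequencing depth was 23700000 to 35400000 reads in P28-KO, 18200000 to 44200000 reads in P28-wt and 31500000 to 91400000 reads in P10-wt. These estimates are approximate. The study's methods state a single approximate depth for all samples, which several of the P10-wt estimates exceed. Pairs of libraries of 1 group correlated with an r of 0.9714 to 0.9924 over all expressed genes. A pair of libraries stood apart in these genes. P28-wt replicate 2 had the highest value of its group in 37 of the 52 genes and P10-wt replicate 1 in 41 of 52, and they lay apart too in principal components over all genes, at -38.74 on the second component (the other P28-wt libraries lay at -12.49 to 8.72) and at 79.03 on the first (the other P10-wt libraries lay at 55.29 to 56.9). The counts of the age comparison are given with and without them. By the study's legends, each age and genotype had as many mice as libraries, and the litter of each library was not stated. Replicates are numbered in accession order.

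Age was the first comparison: P28-wt against P10-wt, which asks how the expression of splicing genes differs between the age before eye opening and the fourth postnatal week. By limma at an adjusted p under 0.05, 22 of the 52 fell (42.3%) and 1, Hnrnph2, rose (1.92%), whereas over all genes tested 31.2% fell and 26.7% rose. The median log2 fold change was -0.24 over the splicing genes and -0.05 over all genes. In 19 genes every P28-wt library lay below every P10-wt library and in 1 gene every one lay above, and the same was true of 29.7% and 24.9% of all genes. The tissue was bulk cortex, in which fewer cells of a type and less RNA per cell cannot be told apart. Markers of immature neurons and dividing cells moved with this comparison, as all 8 of them (Dcx, Sox11 and Mki67 among them) were lower in P28-wt with a summed level of 221 to 268 RPKM, against 911 to 1450 RPKM in P10-wt, none being at 0 in any library. Oligodendrocyte markers were higher in 8 of 8 and summed to 1860 to 2620 RPKM in P28-wt, against 36.4 to 124 RPKM in P10-wt. The part of these cells in the values below was not tested.

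Without P28-wt replicate 2 and P10-wt replicate 1, 31 of the 52 genes fell and 2 rose, while 33.4% and 27.5% of all genes did. All 23 genes called with the full set were called again, and the 10 that joined them were Hnrnpdl, Hnrnpl, Hnrnpu, Srsf7, Snrpd1, Snrpd2, Snrpd3, Snrpe, Snrpf and, in the other direction, Srsf11. The regularized test that the study had used on RPKM, run here at a posterior probability above 0.6, called 30 genes lower and 7 higher, against 39.4% and 34% of all genes. With a trend of each library on the GC content and length of the transcript removed, 20 genes fell and 4 rose (31.1% and 29.2% of all genes), and 16 of the 23 calls were kept.

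**Figure D1:**
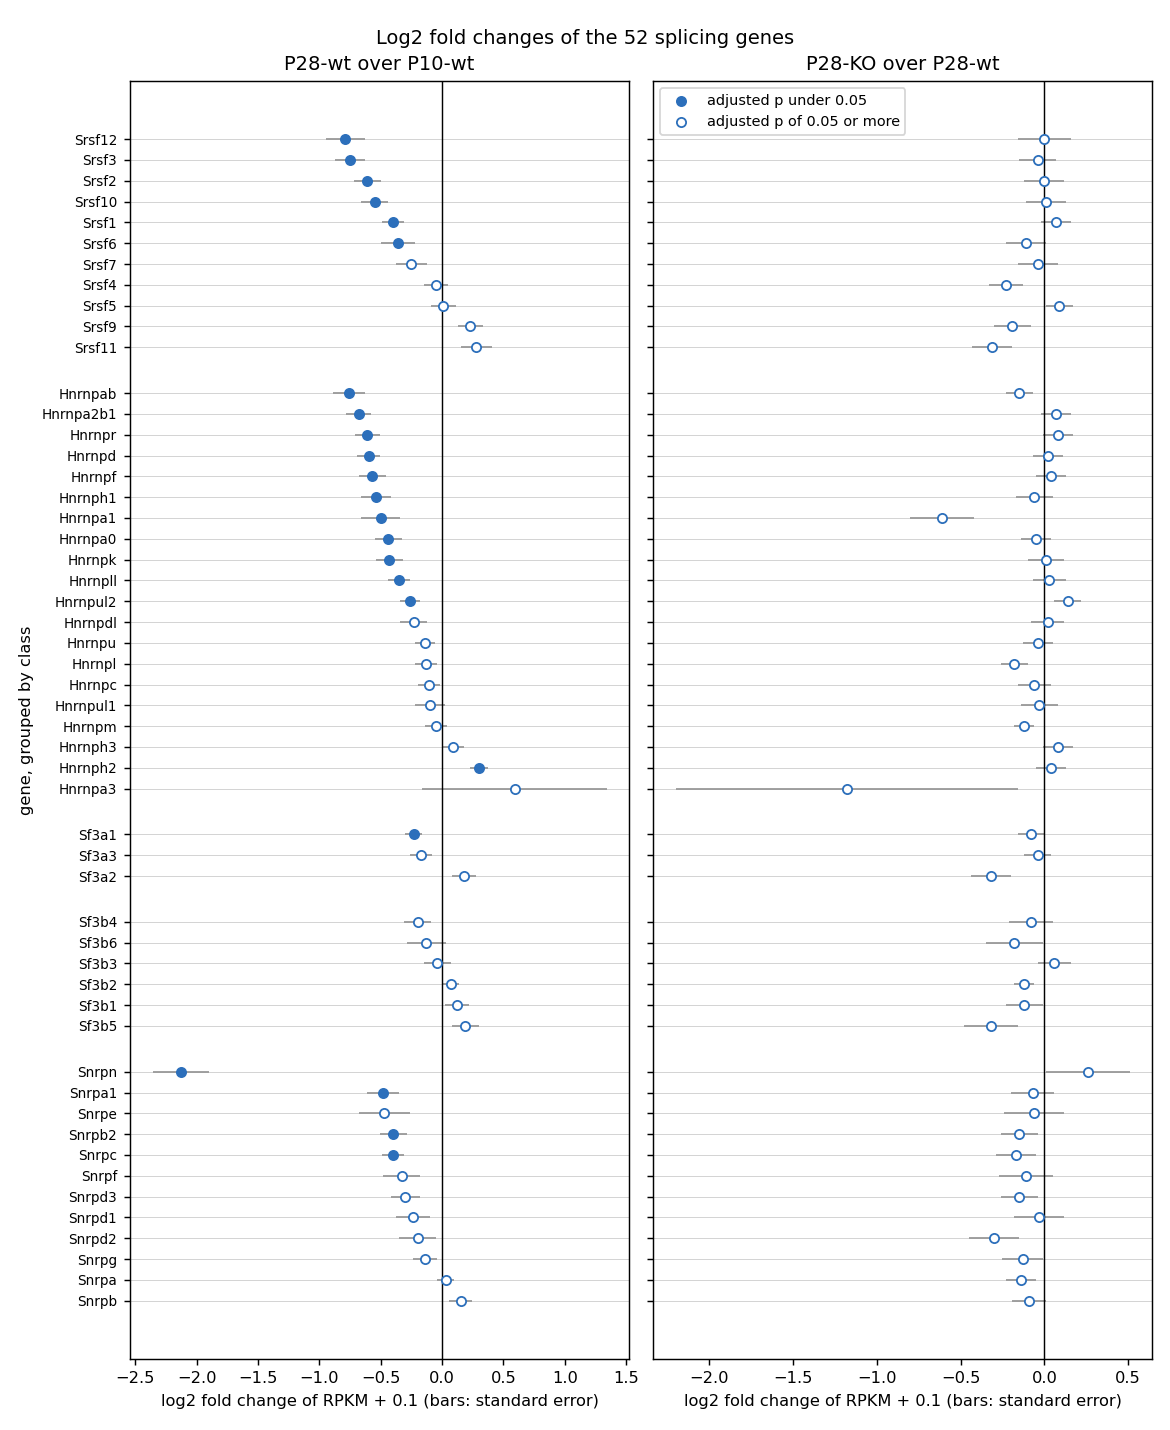
Log2 fold change of each of the 52 genes (rows, grouped by class) on the x axis for P28-wt over P10-wt (left) and P28-KO over P28-wt (right). Points are limma estimates on log2(RPKM + 0.1), bars are SEs, and filled points passed an adjusted p under 0.05. Filled points are found in the left panel only, 22 of them left of 0 and 1 right of it, and the wide bars of Hnrnpa3 belong to its 31-base row.

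Of the SR protein genes, 6 of 11 fell with age (54.5%, beside 31.2% of all genes), none rose (26.7% of all genes), and the median log2 fold change was -0.36. Srsf3 encodes the smallest SR protein, which also acts in mRNA export. It was at 20.3, 27.5, 20.4 and 21.1 RPKM in P28-wt, against 44.0, 37.5, 33.8 and 34.4 RPKM in P10-wt. The groups did not overlap, and P28-wt replicate 2 was the highest of its group. On the log2 scale the difference was -0.75 (standard error, SE, 0.12, adjusted p = 0.000414), or 0.597 times the P10-wt level. Srsf2 (SC35), a protein of nuclear speckles that is also tied to transcription elongation, was at 42.2, 58.0, 50.2 and 42.0 RPKM in P28-wt, against 79.9, 67.4, 74.1 and 70.3 RPKM in P10-wt. These groups were apart as well, with a log2 fold change of -0.61 (SE 0.11, adjusted p = 0.000987).

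Srsf10 and Srsf12 encode SR proteins known to repress splicing in some settings. Both were among the lower genes. Srsf10 was at 6.05, 8.27, 6.41 and 6.50 RPKM in P28-wt, against 11, 9.65, 9.72 and 9.53 RPKM in P10-wt (log2 fold change -0.55, SE 0.11, adjusted p = 0.00136). For Srsf12 the values were 5.98, 10.8, 6.97 and 7.49 RPKM in P28-wt, against 14.1, 12.6, 12.5 and 13.7 RPKM in P10-wt, and its log2 fold change of -0.79 (SE 0.16, adjusted p = 0.00153) was the lowest of the class. Srsf1, the founding member of the family, fell by 0.40 on the log2 scale (SE 0.09, adjusted p = 0.00438), and by 0.06 with the GC and length trend removed, where it was no longer called. Srsf6 fell by 0.36 (SE 0.14, adjusted p = 0.0443), and its groups overlapped, as P28-wt replicate 2 reached 41.0 RPKM and the P10-wt libraries began at 36.4. Its call was also lost in each fit that left out 1 library other than P28-wt replicate 2.

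The SR genes were not uniform. Srsf5, the most abundant of them with a mean of 82.1 RPKM, was at 75.6, 94.3, 78.6 and 74.2 RPKM in P28-wt, against 87.3, 81.3, 80.3 and 70.9 RPKM in P10-wt. These values overlapped over most of their range, and the log2 fold change was 0.01 (SE 0.10, adjusted p = 0.937). Srsf11, which has been tied to the splicing of neuronal microexons, was at 42.5, 64.0, 45.4 and 44.5 RPKM in P28-wt, against 45.9, 39.5, 36.6 and 38.3 RPKM in P10-wt. With both libraries that stood apart, its log2 fold change was 0.28 (adjusted p = 0.0925), and without them it was 0.21 (adjusted p = 0.0124), so it passed the test without them and not with them. Srsf9 had a log2 fold change of 0.23 (adjusted p = 0.0775), or 0.13 (adjusted p = 0.148) without both libraries, and Srsf7 one of -0.25 (adjusted p = 0.115).

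**Figure D2:**
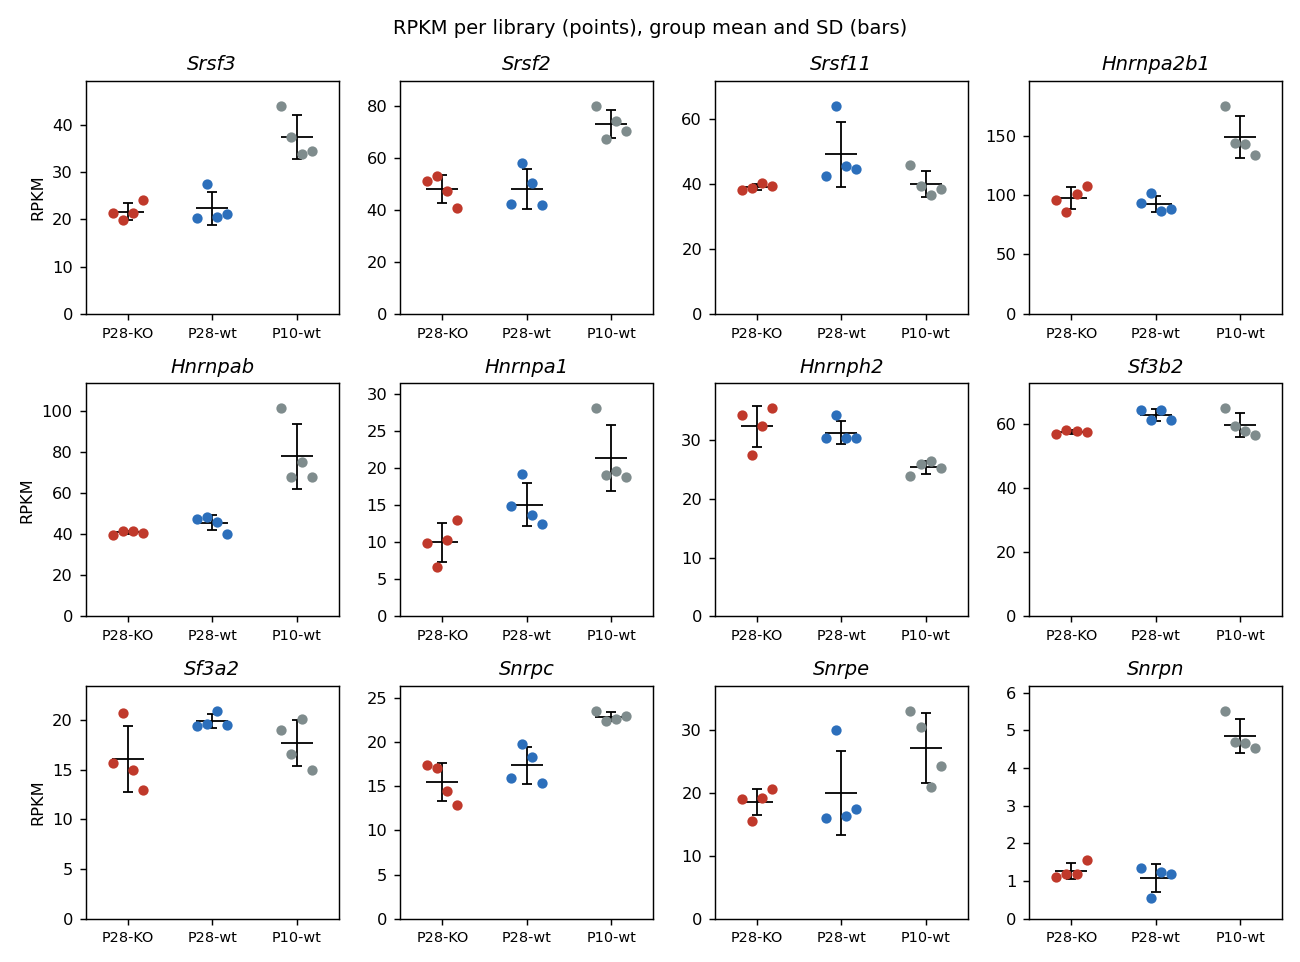
RPKM (y axis, from 0) of 12 genes in each of the 4 P28-KO, P28-wt and P10-wt libraries (points), with the group mean and SD as bars. For Srsf3, Srsf2, Hnrnpa2b1, Hnrnpab, Snrpc and Snrpn all P28-KO and P28-wt points lie below all P10-wt points, while Hnrnph2 has its P10-wt points lowest and single P28-wt libraries stand out in Srsf11 and Snrpe.

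The hnRNP genes gave the largest number of calls, with 11 of 20 lower in P28-wt (55%, beside 31.2% of all genes), Hnrnph2 higher, and a median log2 fold change of -0.30. The core hnRNP gene Hnrnpa2b1, whose protein binds nascent pre-mRNA and also sorts mRNA to neuronal processes, was at 93.4, 102, 86.8 and 88.6 RPKM in P28-wt, against 175, 144, 143 and 134 RPKM in P10-wt. Its groups were far apart and its log2 fold change was -0.68 (SE 0.10, adjusted p = 0.000237). Hnrnpab, which encodes another protein of the A/B type, was at 47.4, 48.3, 45.8 and 40.1 RPKM in P28-wt, against 100.9, 67.6, 75.1 and 67.5 RPKM in P10-wt. Its log2 fold change was -0.76 (SE 0.13, adjusted p = 0.000618), the lowest of the hnRNP genes, and every P28-wt library lay below every P10-wt library. The 3rd A/B gene, Hnrnpa1, encodes a classic antagonist of SR proteins at splice sites. It was at 14.9, 19.2, 13.6 and 12.5 RPKM in P28-wt, against 28.0, 19, 19.6 and 18.7 RPKM in P10-wt, values that overlapped through P28-wt replicate 2 (log2 fold change -0.50, SE 0.16, adjusted p = 0.0206). It was not called without P28-wt replicate 3 (adjusted p = 0.059771) or replicate 4 (adjusted p = 0.0575449). Hnrnpa0 fell by 0.44 (SE 0.11, adjusted p = 0.00571).

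Hnrnpd (AUF1), which binds AU-rich elements of unstable mRNAs, was at 16.3, 19.3, 16.5 and 15.8 RPKM in P28-wt, against 29.6, 24.5, 24 and 25.2 RPKM in P10-wt (log2 fold change -0.60, SE 0.09, adjusted p = 0.00034). Hnrnpr, linked to the transport of actin mRNA in axons, was at 7.71, 8.52, 7.41 and 7.92 RPKM in P28-wt, against 14.6, 11.6, 11.4 and 11 RPKM in P10-wt. The 2 groups were again apart, with a log2 fold change of -0.61 (SE 0.10, adjusted p = 0.000495). Both lost the call with the GC and length trend removed, at -0.24 for Hnrnpd and -0.18 for Hnrnpr. Hnrnpk, whose protein binds C-rich RNA, fell by 0.43 (SE 0.11, adjusted p = 0.00589).

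Genes of the hnRNP H/F family, which bind runs of G, went in both directions. Hnrnph1 was at 71.4, 89.6, 70.7 and 64.8 RPKM in P28-wt, against 130.1, 101.3, 102.0 and 98.3 RPKM in P10-wt (log2 fold change -0.54, SE 0.12, adjusted p = 0.00337). Hnrnpf fell by 0.57 (SE 0.11, adjusted p = 0.000974) at a much lower level, 3.41 to 3.81 RPKM in P28-wt, against 4.67 to 6.14 RPKM in P10-wt. Hnrnph2, the X-linked close relative of Hnrnph1, was the exception and rose. It was at 30.3, 34.2, 30.3 and 30.3 RPKM in P28-wt, against 23.9, 26, 26.4 and 25.2 RPKM in P10-wt, with every P28-wt library above every P10-wt library (log2 fold change 0.30, SE 0.07, adjusted p = 0.00491). It kept that sign under each of the 21 alternatives, with log2 fold changes of 0.23 to 0.48. Since Hnrnph1 and Hnrnph2 are similar in sequence and reads matching both were dropped, each value rests on the stretches in which they differ.

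The remaining calls among hnRNP genes were Hnrnpll and Hnrnpul2, which fell by 0.35 and 0.26 (adjusted p = 0.00667 and 0.0198). The call of Hnrnpul2 was lost with median-ratio scaling, without P28-wt replicate 3, and with the GC and length trend removed. Hnrnpu (SAF-A, a nuclear scaffold protein) was at 98.3, 116, 96.0 and 103 RPKM in P28-wt, against 120, 113, 113 and 108 RPKM in P10-wt, with a log2 fold change of -0.14 (SE 0.08, adjusted p = 0.167). Of the other hnRNP genes that did not pass, Hnrnpdl, Hnrnpl, Hnrnpc, Hnrnpul1, Hnrnpm and Hnrnph3 had log2 fold changes of -0.23 to 0.09.

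In the snRNP class, 4 of 12 genes fell, a share of 33.3% that is close to the 31.2% of all genes, none rose, and the median log2 fold change was -0.32. The proteins specific to U1 and U2 accounted for 3 of the calls. Snrpc (U1-C, which helps U1 to hold the 5′ splice site) was at 15.9, 19.8, 18.3 and 15.4 RPKM in P28-wt, against 23.5, 22.4, 22.6 and 22.9 RPKM in P10-wt. The P10-wt libraries were close together and above all P28-wt libraries, and the log2 fold change was -0.40 (SE 0.09, adjusted p = 0.00291). Snrpa1 and Snrpb2, the A′ and B″ proteins that bind each other on U2 RNA, fell by 0.48 (SE 0.13, adjusted p = 0.00972) and 0.40 (SE 0.11, adjusted p = 0.0113). The gene of the U1-A protein, Snrpa, was at 24.5 to 28.3 RPKM in P28-wt and 25.2 to 27.1 RPKM in P10-wt.

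Genes for the common Sm ring gave no call apart from the row named Snrpn. Among Snrpd1, Snrpd2, Snrpd3, Snrpe, Snrpf and Snrpg the log2 fold changes ran from -0.47 for Snrpe to -0.14 for Snrpg, and adjusted p from 0.0539 for Snrpd3 to 0.263 for Snrpd2 and Snrpg. Snrpe was at 16.1, 30.0, 16.4 and 17.5 RPKM in P28-wt, against 33.1, 30.5, 21 and 24.3 RPKM in P10-wt, so that 1 P28-wt library lay within the P10-wt range and the other 3 below it. Without P28-wt replicate 2 and P10-wt replicate 1 its log2 fold change was -0.58 (SE 0.12, adjusted p = 0.00263), and 5 of these 6 Sm genes fell, all but Snrpg.

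SmB and SmN are 2 near-identical proteins that take the same place in the ring, SmB being made in most tissues and SmN, from the imprinted Snrpn locus, chiefly in brain. Snrpb was at 54.4, 63.9, 64.3 and 51.2 RPKM in P28-wt, against 54.6, 52.8, 52 and 49.9 RPKM in P10-wt, with a log2 fold change of 0.15 (SE 0.09, adjusted p = 0.171). The Snrpn row was at 1.35, 0.540, 1.23 and 1.2 RPKM in P28-wt, against 5.52, 4.69, 4.67 and 4.54 RPKM in P10-wt. It had the lowest log2 fold change of the 52 genes, -2.13 (SE 0.23, adjusted p = 3.47e-05), and it kept the call in every alternative. This row spans chromosome 7 from 60071885 to 60140219 and holds 0% of the SmN coding bases, only non-coding exons upstream of them, at about 5.35 to 22.6 reads in P28-wt and 61.2 to 210 reads in P10-wt. The row named Snurf, from 59982501 to 59983277, covers the last exon that Snurf and Snrpn share and 38 of the 723 SmN coding bases. It was at 32.4, 59.6, 43.1 and 40.8 RPKM in P28-wt, against 24.3, 37.5, 35.7 and 38.4 RPKM in P10-wt, with a log2 fold change of 0.36 (SE 0.19, adjusted p = 0.129). The call on Snrpn thus concerns upstream exons, whereas the shared 3′ end was not called and its estimate was above 0.

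In the SF3 complexes of U2, 33.3% of the SF3a genes and 0% of the SF3b genes fell, beside 31.2% of all genes. None rose in either class, beside 26.7% of all genes. The share of the SF3a genes is near that of all genes, and both classes are small. Of the 3 SF3a genes, Sf3a1 fell by 0.23 (SE 0.07, adjusted p = 0.0208), at 16.7, 14.8, 17.2 and 16.6 RPKM in P28-wt, against 19.7, 19.1, 19.8 and 18.1 RPKM in P10-wt. It was not called after median-ratio scaling, without P10-wt replicate 3, or with the GC and length trend removed. Sf3a2 had a log2 fold change of 0.18 (adjusted p = 0.135). With all libraries and no correction for GC and length, none of the 6 SF3b genes passed by limma in either direction or had an unadjusted p under 0.05, and the median log2 fold change of 0.02 ran from -0.05 to 0.08 over the alternatives. Sf3b1, whose protein clamps the branch point, was at 43.3, 60.8, 45.7 and 47.0 RPKM in P28-wt, against 46.8, 43.7, 44.5 and 44.5 RPKM in P10-wt. Sf3b2 was the most abundant of them, with 61.2 to 64.4 RPKM in P28-wt and 56.5 to 64.9 RPKM in P10-wt. Its log2 fold change was 0.07 (SE 0.07, adjusted p = 0.389). Single SF3b genes were called under other settings. With the GC and length trend removed Sf3b1 was higher (0.46, adjusted p = 0.00393) and Sf3b4 lower (-0.40, adjusted p = 0.00643). Sf3b4 also passed without P28-wt replicate 3 (-0.28, adjusted p = 0.0494), and Sf3b5 without P28-wt replicate 4 (0.29, adjusted p = 0.0212). The regularized test called Sf3b4 lower and Sf3b5 higher.

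**Figure D3:**
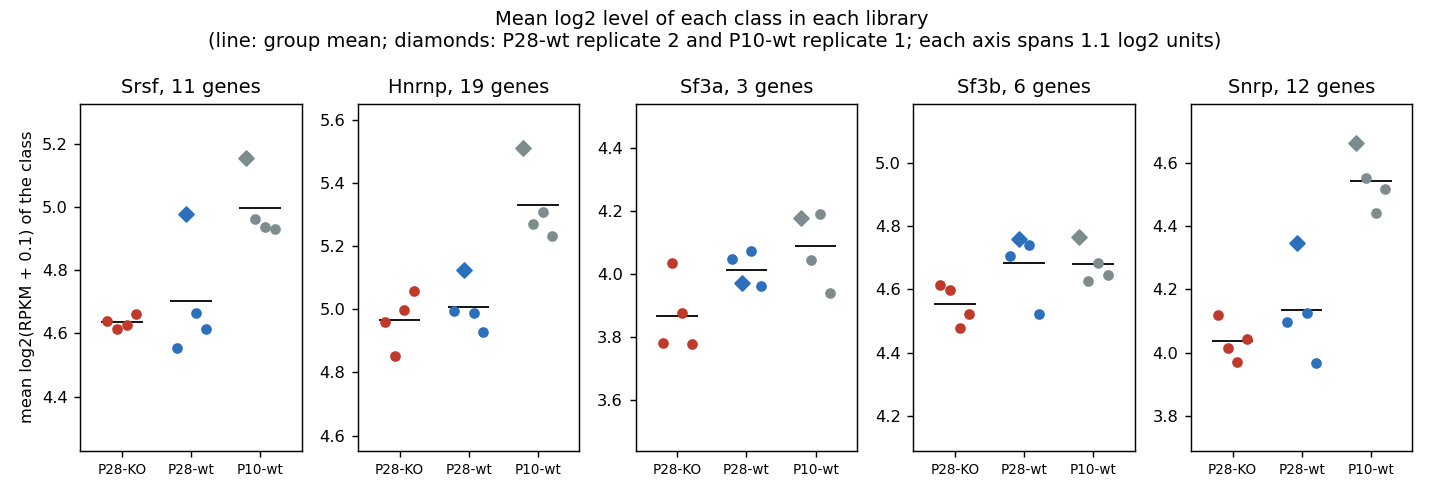
Mean of log2(RPKM + 0.1) over the genes of each class (y axis) in each P28-KO, P28-wt and P10-wt library, with the group mean as a line. Hnrnpa3 is left out of the Hnrnp mean, a choice made after it was seen at 0, and all axes span the same range. The Snrpn row is kept in the Snrp mean, and the lack of overlap between P28-wt and P10-wt in that panel rests on it. Diamonds mark P28-wt replicate 2 and P10-wt replicate 1, which are the highest of their groups for Srsf, Hnrnp, Sf3b and Snrp.

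The classes also differed in how far P28-wt replicate 2 was from the other P28-wt libraries. Its log2 level exceeded the mean of the other 3 by a median of 0.43 in Snrp genes, 0.40 in Srsf genes and 0.22 in Hnrnp genes, but by 0.06 in Sf3b and -0.03 in Sf3a genes. Across 51 genes (without Hnrnpa3) this excess had a correlation of -0.32 with log2 transcript length and -0.34 with GC content, and the age log2 fold change had one of -0.13 with length and 0.34 with GC content. These describe the genes, which share libraries, and are not tests. In the plot of class means, P28-wt libraries lay between 4.555 and 4.979 for Srsf genes, against 4.931 to 5.156 in P10-wt, so that the groups overlapped through P28-wt replicate 2, while the other 3 P28-wt libraries were at 4.663 or below. For Snrp genes P28-wt lay between 3.967 and 4.346, against 4.443 to 4.665 in P10-wt, with no overlap. This mean includes the Snrpn row, at 0.540 RPKM in P28-wt replicate 2 and 4.54 to 5.52 RPKM in P10-wt. The lack of overlap rests on that row, which holds no SmN coding bases.

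Other genes of the splicing machinery, outside the names used above, moved in both directions. The counts in the lists that follow are to be read beside the 31.2% of all genes that fell and the 26.7% that rose, and a share near these is not a result about the list. Of 31 other U snRNP proteins, 11 fell and 7 rose. Lsm11, which with Lsm10 belongs to the U7 particle of histone pre-mRNA, averaged 6.88 ± 0.614 RPKM in P28-wt and 46.3 ± 4.46 RPKM in P10-wt (SD, n = 4 each, log2 fold change -2.73, adjusted p = 5.71e-08). Lsm10 fell by 0.63. Snrnp70, the U1-70K gene, rose, at 93.7 ± 11.3 RPKM in P28-wt and 59.7 ± 4.55 RPKM in P10-wt (log2 fold change 0.64, adjusted p = 0.000305), while its U1 partner Snrpc fell. Eftud2, a U5 GTPase, rose by 0.34.

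Of 30 SR-related proteins, SR kinases and import factors, 12 fell and 5 rose. Tnpo3, the transportin that carries SR proteins into the nucleus, averaged 16.9 ± 1.21 RPKM in P28-wt and 23.9 ± 1.97 RPKM in P10-wt (log2 fold change -0.50, adjusted p = 0.000615), and the export factor gene Thoc2 fell by 0.59. The SR kinase gene Srpk3 rose, at 2.93 ± 0.547 RPKM in P28-wt and 0.718 ± 0.337 RPKM in P10-wt, as did Clk3 by 0.40. Of 25 hnRNP-like genes with other names, 11 fell, among them Syncrip (hnRNP Q, log2 fold change -1.0) and Rbmx (hnRNP G, -0.81), and 1 rose, Pcbp3 (0.26).

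Assembly of snRNPs was the list with the highest share of lower genes outside the 5 classes, 7 of 14, with 1 higher. Prmt5, which methylates Sm proteins before they are loaded, averaged 20.2 ± 0.620 RPKM in P28-wt and 35.3 ± 1.24 RPKM in P10-wt (log2 fold change -0.80, adjusted p = 4.86e-06), and Tgs1, which matures the snRNA cap, fell by 0.52, whereas Gemin8 of the SMN complex rose by 0.59. In the list of Prpf genes, Prp19 complex and helicases, 10 of 41 fell, Dhx9 (-0.95) among them, and 7 rose, among them Snw1 (0.44) and Xab2 (0.53). For the exon junction complex and decay factors, 4 of 13 fell, among them Magohb (-0.60) and Casc3 (-0.28), and 2 rose, Upf2 (0.64) and Smg6 (0.26). In the short list of minor spliceosome genes, 4 of 8 were higher and none lower, such as Zrsr1 (0.64) and Pdcd7 (0.54). That share depends on how the list was drawn. Snrnp25, Snrnp35 and Snrnp48 are also proteins of the minor spliceosome but were counted with the other U snRNP proteins. None of them was called (adjusted p = 0.0661, 0.537 and 0.495 by limma).

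**Figure D4:**
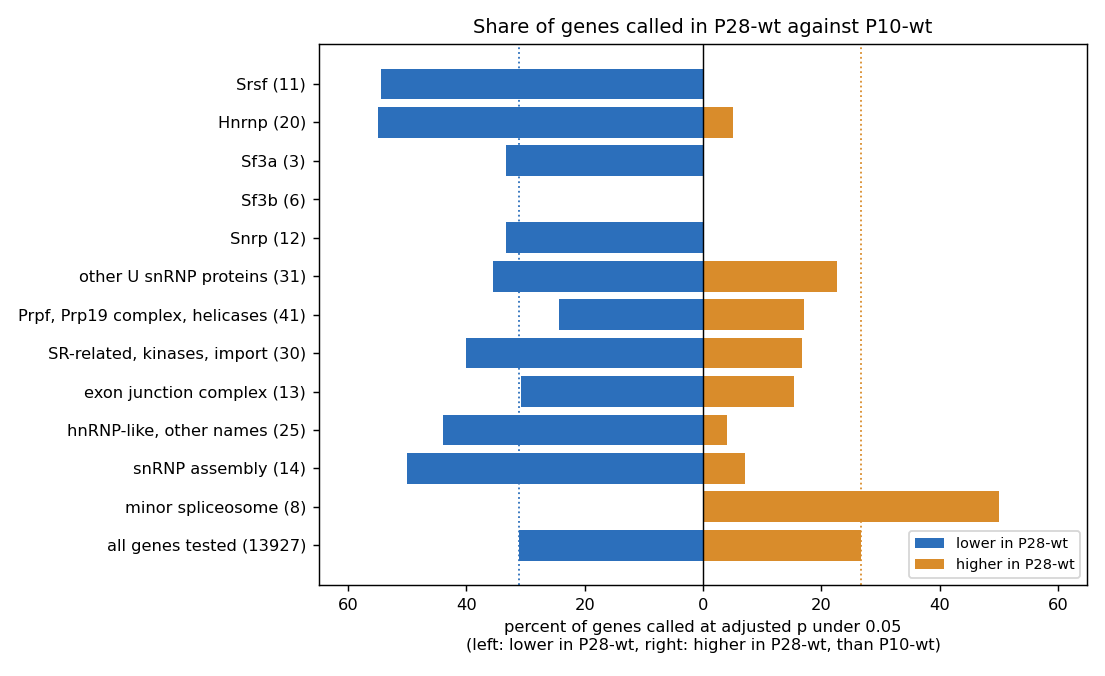
Percent of genes called at an adjusted p under 0.05 in P28-wt against P10-wt, to the left of 0 for genes lower in P28-wt and to the right for genes higher in P28-wt, for the 5 classes, 7 further lists and all genes tested (number of genes in brackets). Dotted lines mark the shares over all genes, 31.2% lower and 26.7% higher. Srsf and Hnrnp genes were lower in 54.5% and 55%, and Sf3b genes gave no bar.

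The second comparison, P28-KO against P28-wt, asks what the loss of miR-132 and miR-212 was accompanied by at 28 days. None of the 52 splicing genes passed in either direction. Among all genes tested 0% were called higher and 0.0144% lower, and the 2 genes called were Mir132 and Mir212. At an unadjusted p under 0.05, 4 of the 52 genes were lower and 0 higher, beside 8.11% lower and 4.27% higher over all genes. The median log2 fold change of the splicing genes was -0.06 and that of all genes -0.03. Scaling moved both: with a common RPKM sum the medians were 0.02 and 0.05, and the genes at an unadjusted p under 0.05 over the whole table were 1168 higher and 465 lower, where the values as deposited gave 594 and 1130. Markers of immature neurons, the list that had moved most downwards with age, summed to 203 to 249 RPKM in P28-KO, against 221 to 268 RPKM in P28-wt, with none of the 8 called. Most of that sum was Tubb3, which averaged 189 RPKM in P28-KO and 218 RPKM in P28-wt. The median log2 fold change of these markers was 0.13. Tubb3 (-0.21) and Top2a (-0.18) were below 0 and the others above, among them Dcx (0.33) and Sox11 (0.27). Oligodendrocyte markers summed to 1400 to 1780 RPKM in P28-KO, against 1860 to 2620 RPKM in P28-wt, with none of the 8 called. All 8 had log2 fold changes below 0, from -0.51 for Mbp to -0.18 for Mal, with a median of -0.32.

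The 5 genes with the smallest p were all lower in P28-KO. Hnrnpa1 was at 9.84, 6.66, 10.3 and 13.0 RPKM in P28-KO, against 14.9, 19.2, 13.6 and 12.5 RPKM in P28-wt. A single P28-KO library reached into the P28-wt range, and the log2 fold change of -0.61 (SE 0.19, 95% interval -1.03 to -0.19) had an unadjusted p of 0.00852 and an adjusted p of 0.382 by limma. Srsf11 was at 38.1, 38.6, 40.3 and 39.3 RPKM in P28-KO, against 42.5, 64.0, 45.4 and 44.5 RPKM in P28-wt. Its groups did not overlap, but P28-wt replicate 2 was far above the rest, the log2 fold change being -0.31 (adjusted p = 0.394) with it and -0.18 (adjusted p = 0.454) without it. Sf3a2, a U2 protein, was at 15.7, 20.7, 15 and 12.9 RPKM in P28-KO, against 19.4, 19.6, 20.9 and 19.5 RPKM in P28-wt (log2 fold change -0.32, 95% interval -0.60 to -0.05, adjusted p = 0.394). Srsf4 and Hnrnpl had log2 fold changes of -0.23 and -0.18 (adjusted p = 0.4 and 0.407 by limma). Without P28-wt replicate 2 the value was closer to 0 for Hnrnpl (-0.12) and Hnrnpa1 (-0.49). It was further from 0 for Srsf4 (-0.31) and about the same for Sf3a2 (-0.33).

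In 3 of the 52 genes every P28-KO library lay below every P28-wt library, and in none above, beside 3.62% and 1.87% of all genes. Apart from Srsf11 these were Sf3b2 and Hnrnpm. Sf3b2 was at 56.8, 58.3, 58.0 and 57.4 RPKM in P28-KO, against 64.3, 61.2, 64.4 and 61.3 RPKM in P28-wt, with a log2 fold change of -0.12 (SE 0.06, adjusted p = 0.423). Hnrnpm was at 35.2, 36.9, 38.7 and 36.7 RPKM in P28-KO, against 40.3, 40.9, 40.2 and 39.2 RPKM in P28-wt, again with -0.12 (SE 0.06, adjusted p = 0.434). The regularized test called 6 of the 52 lower and none higher, where it called 6.94% of all genes lower and 4.65% higher. The 6 were Hnrnpa1, Srsf11, Srsf4, Sf3a2, Sf3b5 and Snrpd2. By limma, Snrpd2 had a log2 fold change of -0.30 with P28-wt replicate 2 and of -0.16 without it.

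Genes whose 3′ UTR holds the GACTGTT letters printed above gave small estimates between the genotypes. Hnrnpd averaged 17.3 ± 1.1 RPKM in P28-KO and 17.0 ± 1.57 RPKM in P28-wt (SD, n = 4 each), with a log2 fold change of 0.02 and a 95% interval of -0.16 to 0.21. Hnrnpc was at 35.0 ± 4.17 RPKM in P28-KO and 36.5 ± 3.55 RPKM in P28-wt (-0.06, -0.29 to 0.16), and Hnrnpu at 100 ± 9.02 RPKM in P28-KO and 103 ± 8.73 RPKM in P28-wt (-0.04, -0.24 to 0.16). For Sf3b1 the log2 fold change was -0.12 (-0.37 to 0.12), for Snrpb -0.09 (-0.32 to 0.13) and for Hnrnpm -0.12 (-0.26 to 0.02). None of the 6 was called, and the intervals leave room for differences of up to 0.21 upwards. Of the genes with a -5p match, Hnrnph1 had a log2 fold change of -0.06 (-0.31 to 0.19), Hnrnpul2 of 0.14 (-0.04 to 0.32) and Hnrnpdl of 0.02 (-0.19 to 0.23).

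For 44 of the 52 genes the 95% interval of the P28-KO over P28-wt log2 fold change lay between -0.5 and 0.5. The 8 genes with intervals beyond these bounds were Hnrnpa3, Hnrnpa1, Srsf11, Sf3a2, Sf3b5, Sf3b6, Snrpd2 and Snrpn. For Snrpn, P28-KO was at 1.1, 1.18, 1.19 and 1.57 RPKM, against 1.35, 0.540, 1.23 and 1.2 RPKM in P28-wt, both far below the P10-wt libraries.

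Set against P10-wt, P28-KO libraries differ in age and genotype together, and the comparison shares its libraries with the other 2. Here 32 of the 52 genes were lower and 1, again Hnrnph2, was higher, beside 33.6% lower and 24.6% higher over all genes. By class, 8 of 11 Srsf, 11 of 20 Hnrnp, 2 of 3 Sf3a, 2 of 6 Sf3b and 9 of 12 Snrp genes were lower, and without P10-wt replicate 1 a total of 29 genes were. Values of the P28-KO over P10-wt contrast were -1.87 for Snrpn, -1.11 for Hnrnpa1, -0.91 for Hnrnpab, -0.78 for Srsf3 and Srsf12, -0.61 for Srsf2 and Hnrnpa2b1, -0.58 for Snrpc, -0.57 for Hnrnpd and -0.55 for Snrpb2, and 0.34 for Hnrnph2. The SF3 genes called lower were Sf3a1 (-0.31), Sf3a3 (-0.21), Sf3b4 (-0.29) and Sf3b6 (-0.32). Sf3a1 kept its call in every alternative. Sf3a3 lost it in many, with median-ratio scaling, a common RPKM sum and without P10-wt replicate 1 among them. Sf3b4 lost it with median-ratio scaling, quantile normalization and without P10-wt replicate 1, among others. Sf3b6 lost it only with all 12 libraries in 1 fit. The counts of 32 and 22 were not tested against each other.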

How the data were processed

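Poly(A) mRNA libraries (TruSeq v2, paired 100-base reads, per the study's methods) were made from QIAzol-extracted visual cortex. Per the labels and methods, the authors used CASAVA 1.8.2 and ELAND v2e on mm10, dropped reads matching several places, counted RefSeq exons and deposited RPKM per gene (reads per kilobase of exon, scaled to library depth); the labels also name SAMtools 0.1.19 and Bowtie 0.12.8. Strandedness was not given in the sources used here. Small RNA libraries were not used here. The alternatives were other pseudocounts, filters, scalings and tests, removal of a GC and length trend, and leaving out libraries.

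From the RPKM values, log2(RPKM + 0.1) was tested with limma 3.58.1 (R 4.3.3, trend on mean, each pair of groups fitted alone) over the 13927 genes averaging 0.5 RPKM or more, with Benjamini-Hochberg adjustment and calls at 0.05. A fold change on that scale understates changes of low genes. The fit was tested on simulated data. The 52 genes, the lists and the tests were chosen with earlier results of these data known. Genes were named by a fixed rule (per class and direction up to 3 called genes with the smallest p, or the 5 smallest p of the mutant comparison; called genes against their class; the most abundant gene of a class; Snrpb and Snrpn; genes not overlapping between the genotypes; and up to 2 per list and direction); the other genes were added after their values were seen. Depth was estimated as the number of reads at which RPKM times transcript length came out whole (tolerance 0.1) for most low genes. It gave 50.2% to 52.3% whole values, where 20% is chance, and a setting that rejects multiples of the step was changed after its output was seen. Reads per gene are therefore approximate, and no count test was run on them. Hnrnpa3 was left out of class means after it was seen at 0. Symbols matched RefSeq GRCm38.p6 for 23727 genes, and coordinates of 99.57% of these overlapped. Planned features of the proteins were not analysed here. A gene that the naming rule selects is not reported here.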

Additional observations from a re-analysis of the deposited data

Results flagged for a closer look

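Each group of 4 libraries was searched for a library far from the other 3 (by Dixon's test), in 156 groups of gene and condition. Chance flags about 1 in 20 such groups, and 14 were found. P10-wt replicate 1 was high in 6 of them: Hnrnpa1 at 28.0 RPKM (the others 18.7 to 19.6), Hnrnph1 at 130 (98.3 to 102), Hnrnpr at 14.6 (11 to 11.6), Hnrnpul1 at 37.0 (29.5 to 30.7), Snrpn at 5.52 (4.54 to 4.69) and Srsf10 at 11 (9.53 to 9.72). P28-wt replicate 2 was high in 5: Hnrnph2 at 34.2 RPKM (the others 30.3), Snrpe at 30.0 (16.1 to 17.5), Srsf11 at 64.0 (42.5 to 45.4), Srsf3 at 27.5 (20.3 to 21.1) and Srsf6 at 41.0 (27.6 to 29.3). The others were Hnrnpf, low at 3.41 RPKM in P28-wt replicate 4, Sf3a2, high at 20.9 in P28-wt replicate 3, and Snrpa1, low at 8.42 in P28-KO replicate 2 (the others 10.3 to 10.6). Both libraries that recur here are those that stood apart over all genes, and what set them apart was not tested.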

How the results depend on the processing

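The number of splicing genes called lower stayed within 1.5 times its main value under each alternative in both comparisons with P10-wt: 19 to 31 (main 22) for P28-wt and 28 to 37 (main 32) for P28-KO. Leaving out 1 library gave 20 to 31 and 29 to 32, the highest of the first range without P28-wt replicate 2. Genes called higher in P28-wt (main 1) were 3 with median-ratio scaling, 2 with quantile normalization, 2 with all 12 libraries in 1 fit, 7 with the regularized t-test, 4 with the GC and length trend removed, 2 without both libraries that stood apart (an alternative chosen after seeing the data), and 1 to 3 with 1 library left out. In P28-KO against P10-wt (main 1) they were 2 with median-ratio scaling, quantile normalization or the regularized t-test, 4 with the GC and length trend removed, and 1 to 2 with 1 library left out. In P28-KO against P28-wt the count stayed at 0 in both directions except for 6 lower with the regularized t-test. That test differs from limma in its scale, its spread estimate and its threshold, and the part of each was not tested.

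Genes named with a log2 fold change that turned their sign include the following. Without both libraries that stood apart, the age values were 0.08 for Hnrnpul1 and 0.02 for Hnrnpm. In the age comparison, the GC and length correction gave 0.14 for Hnrnpu, -0.16 for Sf3a2, -0.04 for Sf3b2, -0.09 for Sf3b5 and -0.11 for Snrpb. Srsf5 was at -0.05 with a common RPKM sum, -0.08 with quantile normalization, -0.02 without both libraries, and -0.07 and -0.05 without P28-wt replicate 2 and P10-wt replicate 4. In the mutant comparison, a common RPKM sum gave 0.02 for Hnrnpc and Hnrnph1 and 0.04 for Hnrnpu, quantile normalization 0.01, 0.03 and 0.05, and leaving out P28-wt replicate 2, alone or with P10-wt replicate 1, 0.0, 0.03 and 0.01. Without P28-KO replicate 2, Hnrnph1 and Hnrnpu were at 0.01. Without P28-KO replicate 4 and P28-wt replicate 4, Hnrnpd was at -0.01 and Hnrnpdl at -0.02 and -0.05. The GC and length correction gave -0.14 for Hnrnpd and 0.08 for Snrpb. None of these was called before or after. Leaving out 1 library in turn, the lowest and highest mutant values were -0.13 and 0.0 for Hnrnpc, -0.01 and 0.09 for Hnrnpd, -0.05 and 0.1 for Hnrnpdl, and -0.12 and 0.03 for Hnrnph1. In the age comparison that correction also took the median log2 fold change to -0.14 for Srsf and -0.18 for Hnrnp genes, and the calls lost were Hnrnpd, Hnrnpll, Hnrnpr, Hnrnpul2, Sf3a1, Srsf1 and Srsf6; the cause was not tested. Approximate reads per gene limit Hnrnpa3, Snrpn, Snrpf and Snrpg most. The labels give no replicate numbers, and the numbers 1 to 4 in the names of the deposited columns are not said to mark a shared litter or day. Libraries with the same number did not deviate together in every pair (correlations of -0.05 to 0.11 in the age and -0.09 to 0.28 in the mutant comparison). With that number as a replicate block, chosen after seeing the data, 23 genes were lower and 1 higher with age (Srsf6 lost, Snrpd3 and Snrpe gained), 0 in the mutant comparison, and 31 lower and 1 higher in P28-KO against P10-wt.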
